A study of Drosophila melanogaster with 7 samples.

Results

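The genes described here encode cell-surface receptors and adhesion proteins that epithelial cells and growing axons use to hold on to, or steer by, their neighbours. There were 10 listed genes: kek5, otk, Lar, Ptp69D, Fas2, Fas3, CadN, Nrg, shg and arm. The genes kek5 and otk were picked for their measured difference between the genotypes, and the other 8 were chosen by function with earlier results of these data known. A probe with a value on at least 1 array was found for 7 of the 10, out of 5971 genes with a value in all. Fas2, Fas3 and arm are not analysed here, because no probe listed under them was given. Each of the 7 genes was read by a single probe, and 5 of them (kek5, otk, Ptp69D, Nrg and shg) had a value in every RNA extraction and were tested among 3586 genes.

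RNA from eye imaginal discs of larvae in the third instar, staged by bromophenol blue in the food, was compared on 2-colour arrays, which report the ratio of a mutant to a reference sample for each probe. Mutant larvae carried either sevd2 (given as sevd2;+;+), known as a loss-of-function allele of the receptor tyrosine kinase gene sevenless, or sevS11, known as an activated form of the same receptor. What drives sevS11 is not stated in the labels. The reference on every array was 1 pool of RNA from the isogenic strain w1118;+;+, and w1118 was the background of all 3 strains. The 4 sevd2 arrays covered 2 extractions, each hybridised in both dye orientations. Of the 3 sevS11 arrays, a swapped pair covered extraction 1, and extraction 2 was hybridised once, with the mutant RNA in Cy5. The replicate is the extraction, so n = 2 per genotype. Whether separate larvae went into each extraction is not in the labels, so a p-value reflects no more than how far extractions differ, and that spread may be technical.

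Values are taken as log2 ratios, where 1 unit would be a doubling. The log base is not stated in the sources used here, and every fold given below rests on it. Nor is their direction stated. The direction is taken as mutant over reference, which is likely because sev read 1.81, 1.90 and 4.33 on the sevS11 arrays and -0.46, -0.17 and -0.41 on the 3 sevd2 arrays with a value. Across genes the arrays of a swapped pair correlated at 0.645 to 0.889, arrays of 1 genotype but different extractions at 0.360 to 0.834, and arrays of different genotypes at 0.00664 to 0.517. The sevd2 arrays with the mutant RNA in Cy3, which come from different extractions, correlated at 0.834, above the sevd2 swapped pairs (0.722 and 0.645). Those with the mutant RNA in Cy5 correlated at 0.710, between the values of the swapped pairs. The single array of sevS11 extraction 2 correlated at 0.529 and 0.360 with the other sevS11 arrays. With the sevd2 arrays it correlated at 0.304 to 0.517, so it did not stand closer to its own genotype on every comparison. It had the mutant RNA in Cy5, and the values were 0.517 and 0.448 for the sevd2 Cy5 arrays and 0.325 and 0.304 for the Cy3 arrays. The part of dye orientation in these correlations was not tested. One label field names wing discs as the source of the reference pool, whereas the source, tissue and extraction fields name eye discs. Of 19 eye disc marker genes 15 had a value, and the mean log2 ratio of the 10 tested ones lay between -0.02 and 0.31 over the 4 extractions. Of 12 wing disc markers 9 had a value, and the 5 tested ones averaged between -0.17 and 0.14. The wing genes vg and nub, and the eye disc genes pros, svp and hth, had no value on any array.

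As background, photoreceptor clusters in the eye disc form within an epithelium held together by adherens junctions, in which the cadherin encoded by shg (E-cadherin) binds the catenin encoded by arm. Photoreceptor axons then grow towards the brain and choose their target layer with the help of receptor tyrosine phosphatases and cadherins. Lar, Ptp69D and CadN are known for their part in targeting of the R7 photoreceptor, the cell whose fate depends on Sevenless. Kek5 belongs to the kekkon family of transmembrane proteins with leucine-rich repeats and an immunoglobulin domain, and Kek1 of the same family inhibits the EGF receptor. Off-track, the product of otk, is a receptor-like protein with an inactive kinase domain, related to vertebrate PTK7, and is known from axon guidance and Wnt signalling. Neuroglian, the product of Nrg, is the fly member of the L1 family of immunoglobulin adhesion proteins and is found in septate junctions and on axons.

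Of the 7 receptors, kek5 and otk departed far from the reference, each in a different genotype, and the other 5 lay between -0.63 and 0.44 on every array with a value. The kek5 ratio was low in sevS11 and near 0 in sevd2. The otk ratio was low in sevd2 and near 0 or above in sevS11. Since both genes were picked for the difference between the genotypes, their values are a description and carry no test.

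**Figure D1:**
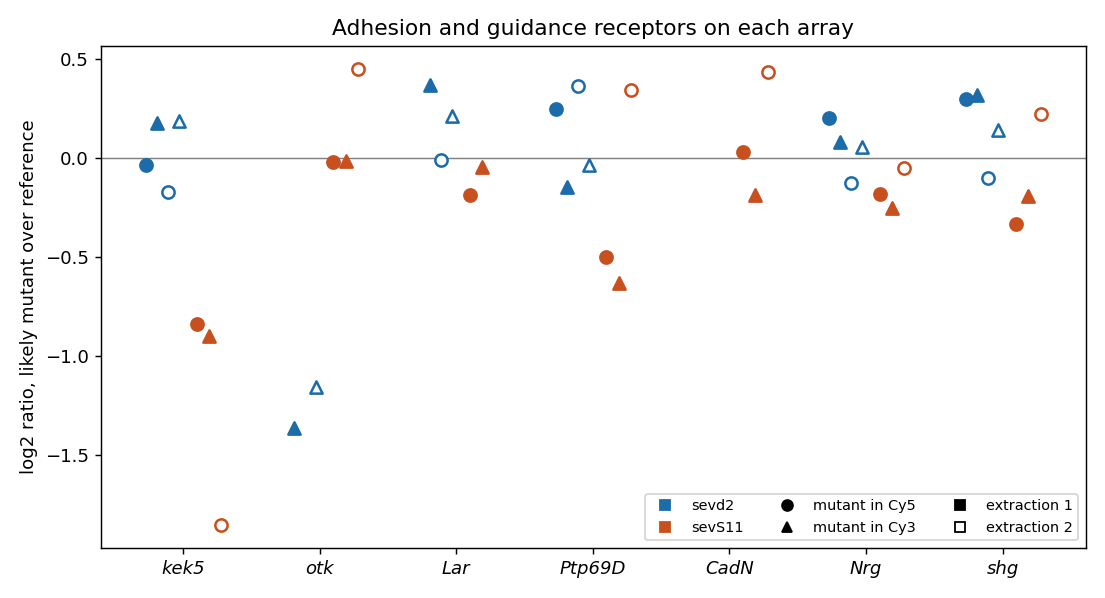
Log2 ratio (y axis, likely mutant over reference) of the 7 receptors with a value (x axis) on each array. Blue symbols are sevd2 and orange symbols sevS11, circles have the mutant RNA in Cy5 and triangles in Cy3, and filled and open symbols are extractions 1 and 2. The 3 sevS11 arrays of kek5 sit between -1.85 and -0.84 and the 2 sevd2 arrays of otk at -1.36 and -1.15, below the other points.

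The kek5 probe had a value on all 7 arrays. On the sevd2 arrays its log2 ratio was -0.04 and 0.18 in extraction 1 and -0.17 and 0.19 in extraction 2, the first of each pair with the mutant RNA in Cy5. On the sevS11 arrays it was -0.84 and -0.90 in extraction 1 and -1.85 on the single array of extraction 2. Every sevS11 array lay below every sevd2 array. The sevS11 values were the 57th lowest of 3990 genes, the 45th lowest of 4161 and the 7th lowest of 5393 on their arrays.

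The sevS11 extractions differed in how low kek5 was. After correction for the dye their log2 ratios were -0.87 and -1.77, a gap of -0.90 that was larger in size than that of 97.5% of the 4456 genes with both extractions. The sevd2 extractions, at 0.07 and 0.01, differed by -0.06, and 36.3% of 3924 genes had a smaller gap. Within swapped pairs the Cy5 array deviated from the mean of its pair by -0.11 and -0.18 in sevd2 and by 0.03 in sevS11, where the median size over genes was 0.069, 0.064 and 0.059. The sevd2 deviations of kek5 were larger in size than those of 70.0% and 93.4% of genes, and larger than its sevd2 extraction means. In the fit over all genes the kek5 log2 ratio was -1.32 ± 0.21 (SE, n = 2 extractions) in sevS11, the 10th lowest of 3586 genes, and 0.04 ± 0.21 in sevd2. The fit gives both genotypes 1 shared spread per gene, so the sevd2 SE also carries the wider gap between the sevS11 extractions. The difference, sevS11 minus sevd2, was -1.36 ± 0.29, which is 2.56-fold lower in sevS11 and the 6th lowest of all tested genes. Without the single array of sevS11 extraction 2 it was -0.91, and without sevS11 extraction 1 it was -1.75.

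The otk probe had a value on 5 arrays. On the 2 sevd2 arrays with a value its log2 ratio was -1.36 in extraction 1 and -1.15 in extraction 2. On the sevS11 arrays it was -0.02 and -0.01 in extraction 1 and 0.45 in extraction 2. Both sevd2 values lay below every sevS11 value, and they were the 4th lowest of 3435 genes and the 3rd lowest of 3553 on their arrays.

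Both sevd2 values of otk came from arrays with the mutant RNA in Cy3, and neither Cy5 array of that genotype gave one. A dye effect therefore could not be cancelled in sevd2 for this gene, and its part in the low ratio was not tested. In the sevS11 pair, where both orientations were read, the Cy5 array of otk deviated from the pair's mean by -0.0029. The same pattern of values in sevd2 was shared by 45 genes (0.754% of those with a value), and 228 genes had the reverse pattern, with values on both Cy5 arrays alone. In the fit the otk log2 ratio was -1.26 ± 0.14 (SE, n = 2 extractions of 1 array each) in sevd2, the 7th lowest of 3586 genes, and 0.22 ± 0.14 in sevS11. The difference was 1.48 ± 0.20, or 2.79-fold higher in sevS11, the 8th highest of the tested genes. The sevS11 ratio itself rested on extraction 2, since without that array it was -0.02, and the difference was then 1.24.

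The genes whose ratios ran most like those of kek5 and otk were found by the mean absolute difference in log2 ratio over the arrays on which the receptor had a value. Over 7 arrays and 2260 other genes the closest to kek5 was obst-B, which encodes a chitin-binding protein, at 0.185. It was followed by l(1)G0320 at 0.215 and CG15905 at 0.237, where the median gene stood at 0.624 from kek5. Like kek5, obst-B was lowest on the array of sevS11 extraction 2 (-1.50) and less low on the pair of extraction 1 (-0.87 and -0.81). CG15905 shared this order at -1.39, -0.85 and -0.98, while l(1)G0320 stayed between -0.90 and -0.75 on the 3 arrays. Since they were selected for likeness to kek5 over the same 7 arrays, nothing is read from a shared order.

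Over 5 arrays and 2485 other genes the closest to otk was regucalcin at 0.234. The gene scyl, which encodes a stress-induced inhibitor of TOR signalling, followed at 0.265 and Had2 at 0.269, with a median of 0.707 over genes. These 3 genes had values on all 4 sevd2 arrays. On the Cy5 arrays that lacked otk, regucalcin read -0.74 and -0.78, scyl -1.08 and -0.97 and Had2 -1.35 and -0.82. The 3 genes were selected for their likeness to otk on the other arrays, and their values say nothing of a dye effect at the otk probe.

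**Figure D2:**
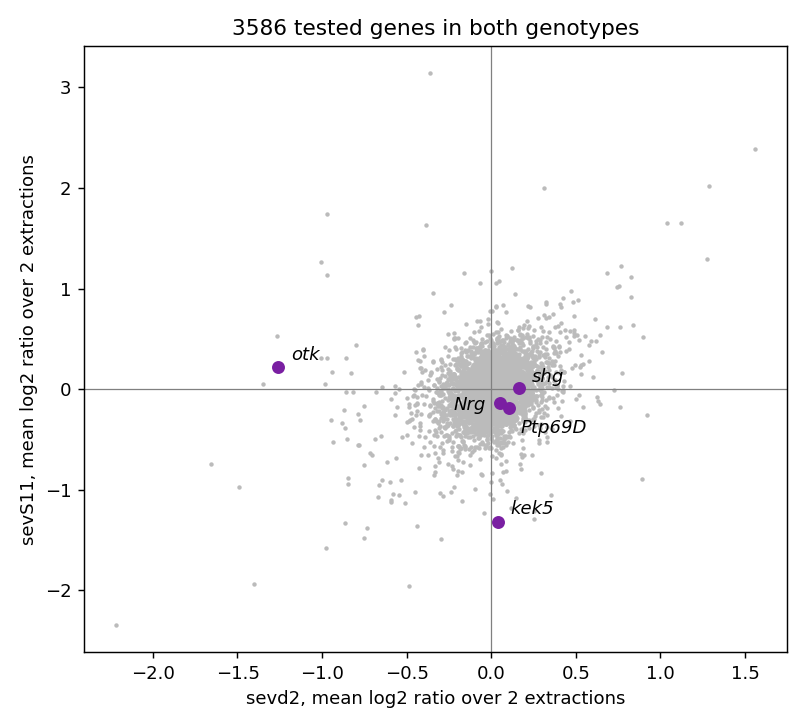
Mean log2 ratio over 2 extractions in sevd2 (x axis) and in sevS11 (y axis) for the 3586 tested genes (grey points), with the 5 tested receptors in purple. The otk point lies at -1.26 on the sevd2 axis and kek5 at -1.32 on the sevS11 axis, while Nrg, Ptp69D and shg lie among the bulk of the genes.

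The receptor tyrosine phosphatases remove phosphate from tyrosines and so act against kinases, and Lar and Ptp69D are known on photoreceptor axons. Ptp69D read 0.25 and -0.14 in sevd2 extraction 1 and 0.36 and -0.04 in extraction 2. The sevS11 values were -0.50 and -0.63 for extraction 1 and 0.35 for extraction 2. Of each sevd2 pair the Cy5 array was the higher, and its deviation from the pair's mean, 0.20 in both, was larger in size than that of 92.6% and 95.7% of genes. The sevS11 extractions lay on opposite sides of 0, at -0.56 and, after dye correction, 0.19, a gap larger than that of 94.5% of genes. The genotypes overlapped, because the array of sevS11 extraction 2 lay within the sevd2 range. The Ptp69D difference of -0.29 ± 0.26 did not pass (limma, adjusted p = 0.624 over all genes), with a 95% interval of -0.93 to 0.34. Its sevS11 ratio was -0.19 ± 0.18 (limma, adjusted p = 0.549) and its sevd2 ratio 0.11 ± 0.18 (limma, adjusted p = 0.922). Without sevS11 extraction 1 the difference was 0.039, on the other side of 0. Without the array of sevS11 extraction 2 it was -0.67. That fit held a single sevS11 extraction, assumed to vary like those of sevd2.

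Lar had no value on sevd2 replicate 1 or on the array of sevS11 extraction 2, so it was not tested. Its log2 ratio was 0.37 in sevd2 extraction 1, -0.01 and 0.21 in sevd2 extraction 2, and -0.19 and -0.05 in sevS11 extraction 1. The sevd2 values lay above the sevS11 values, though the lowest of the former and the highest of the latter nearly met. With the extractions averaged, Lar stood at 0.24 in sevd2 and -0.12 in sevS11, a difference of -0.35 with no replicate in sevS11. For scale, the gap between the sevd2 extractions of Lar was -0.27.

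Of 6 receptors with values on at least 2 arrays of each genotype, 3 (kek5, otk and Lar) had array ranges that did not overlap, where 33.4% of 3781 genes did so. Since kek5 and otk were picked for their difference, that share says nothing of the group.

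Of the listed adhesion proteins Nrg and shg were tested, and neither passed in either genotype. Nrg read 0.20 and 0.08 in sevd2 extraction 1, -0.13 and 0.06 in sevd2 extraction 2, -0.18 and -0.25 in sevS11 extraction 1 and -0.05 in sevS11 extraction 2. All 3 sevS11 arrays lay below 0 and 3 of the 4 sevd2 arrays above it, and the ranges overlapped through sevd2 replicate 3. The Nrg ratio was -0.13 ± 0.10 in sevS11 (limma, adjusted p = 0.449) and 0.05 ± 0.10 in sevd2 (limma, adjusted p = 0.935). Its difference was -0.19 ± 0.15 (limma, adjusted p = 0.581), with a 95% interval of -0.55 to 0.18. Of the 5 tested receptors Nrg had the smallest standard error, and in sevS11 its extractions, at -0.22 and -0.05, differed by less than those of most genes (35.3% had a smaller gap). In sevd2 its gap of -0.18 was larger in size than that of 76.7% of genes. Leaving out sevd2 extraction 1 brought the Nrg difference to -0.086 and leaving out sevS11 extraction 1 to -0.088, while without sevd2 extraction 2 it was -0.30.

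The E-cadherin gene shg read 0.30 and 0.32 in sevd2 extraction 1, -0.10 and 0.14 in sevd2 extraction 2, -0.33 and -0.19 in sevS11 extraction 1 and 0.22 in sevS11 extraction 2. Its extractions disagreed within both genotypes. In sevd2 they stood at 0.31 and 0.02, a gap larger than that of 92.4% of genes, and in sevS11 at -0.26 and 0.29. The shg ratio was 0.01 ± 0.16 in sevS11 (limma, adjusted p = 0.965) and 0.16 ± 0.16 in sevd2 (limma, adjusted p = 0.830). The difference of -0.15 ± 0.22 did not pass (limma, adjusted p = 0.789), with a 95% interval of -0.70 to 0.40. It turned to 0.13 without sevS11 extraction 1 and to 0.0083 without sevd2 extraction 1. Without the array of sevS11 extraction 2 it was -0.43, again with a single sevS11 extraction.

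The neuronal cadherin gene CadN had a value on all 3 sevS11 arrays, at 0.03 and -0.18 in extraction 1 and 0.44 in extraction 2, and on none of the 4 sevd2 arrays. After dye correction the sevS11 extractions stood at -0.08 and 0.33, on opposite sides of 0. This pattern of values was found for 107 genes (1.79%), and 6 genes had values on every sevd2 array and on no sevS11 array. The filter behind missing values is not given in the sources used here, so nothing is read from it, and CadN has no comparison between the genotypes.

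**Figure D3:**
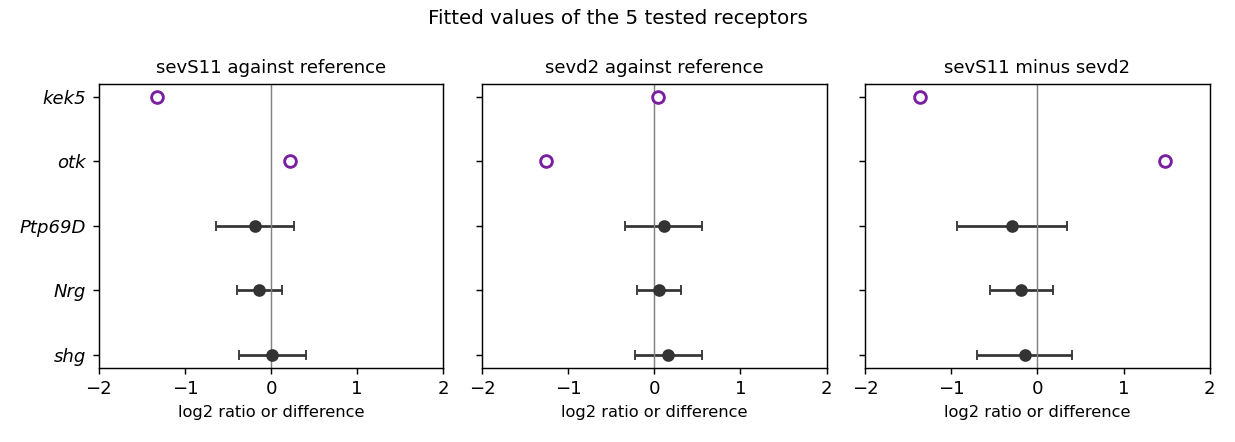
Fitted log2 ratio (sevS11 or sevd2 against the reference) or log2 difference (sevS11 minus sevd2) of the 5 tested receptors, over 2 extractions per genotype. Filled points carry 95% intervals, all of which include 0, and open circles mark kek5 and otk, which were picked for their difference and are shown without an interval.

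At an adjusted p under 0.05, 1 of the 5 tested receptors (kek5) lay past the threshold in sevS11 against the reference, where 5.77% of all tested genes did (2.18% higher and 3.6% lower; 25.3% at an unadjusted p under 0.05). In sevd2 against the reference 0 of 5 did (limma; 1, otk, at an unadjusted p under 0.05), where 0.0837% of all genes did (0.0558% higher and 0.0279% lower). In sevS11 minus sevd2 the count was 0 of 5 (limma; 2, kek5 and otk, at an unadjusted p under 0.05), where 0.0558% of all genes passed, all of them higher. Nothing is read from kek5 and otk in these counts. No gene with a log2 size below 0.461 in sevS11, below 1.29 in sevd2 or below 2.10 in the difference was called, so that the last 2 comparisons reached only large changes. The spread in these fits was shared by the genotypes, although extractions differed by a median of 0.253 in sevS11 and 0.091 in sevd2. With the sevd2 extractions fitted alone, 496 genes passed in sevd2. Both comparisons against the reference share the same pool, and they leave out its own spread.

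The wider set of adhesion and guidance genes held 102 genes besides the listed ones, of which 57 had a value and 40 were tested. In sevS11 against the reference 1 of the 40 fell and 0 rose, where 3.6% of all tested genes fell and 2.18% rose. Without adjustment 5 of the 40 were under 0.05, beside 25.3% of all tested genes. That gene was Sema5c, which encodes a transmembrane semaphorin, a class of guidance ligand. Its log2 ratio was -0.67 and -0.61 in the sevS11 extractions and -0.36 and -0.21 in the sevd2 extractions. The sevS11 ratio was -0.64 ± 0.10 (limma, adjusted p = 0.0298), and the sevd2 ratio, -0.28 ± 0.10, had the same sign without passing (limma, adjusted p = 0.408). Set against each other, the genotypes differed in Sema5c by -0.35 ± 0.14, which missed the threshold (limma, adjusted p = 0.372). Sema5c no longer passed in sevS11 when replicate 1 of that genotype was left out (-0.57, limma adjusted p = 0.0632). Nor did it when sevd2 extraction 1 was left out, with the remaining one assumed to vary like those of sevS11 (-0.65, limma adjusted p = 0.0580). In sevd2 Sema5c did pass with only that genotype's extractions fitted (-0.28, limma adjusted p = 0.0360), where 496 of all tested genes passed. Without sevS11 extraction 2 the difference was -0.38.

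In sevd2 against the reference, and in sevS11 minus sevd2, 0 of the 40 passed (limma). Without adjustment 4 and 3 of them were under 0.05, where 9.76% and 12.7% of all tested genes were. Patj had the lowest p in both comparisons. This gene encodes a scaffold of the apical Crumbs complex. It stood at 0.37 ± 0.10 in sevd2 (limma, adjusted p = 0.274) and differed by -0.51 ± 0.14 (limma, adjusted p = 0.245). The median of the 40 genes was -0.04 in sevS11, 0.08 in sevd2 and -0.13 in the difference, beside -0.0035, 0.01 and -0.02 over all tested genes. In the difference 27 of the 40 lay below 0 and 13 above. The share of all tested genes below 0 was not counted, and their median was below 0 too. Some of the 27 rested on sevS11 extraction 1, such as Gli (-0.28 and 0.20 in the sevS11 extractions) and pyd (-0.23 and 0.20). Others, such as Patj (-0.21 and -0.06), lay below sevd2 in both. No shared fall is read from the count.

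Taken by role, 7 cadherin and catenin genes had differences between -0.22 and 0.08, with 6 below 0. The lowest p there was that of ds, an atypical cadherin of planar polarity (-0.21 ± 0.14, limma adjusted p = 0.541). The 6 immunoglobulin adhesion genes lay between -0.38 and 0.28, from Cont, a septate junction protein gene, to hbs, a gene of the nephrin family used in ommatidial patterning. Both other receptor tyrosine phosphatase genes with a test, Ptp99A and Ptp4E, had differences near 0, at 0.0016 ± 0.14 and 0.02 ± 0.15.

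The leucine-rich repeat list held 4 tested genes, from -0.22 for kek1 to 0.30 for Fili. The kekkon relative kek1 thus differed by -0.22 ± 0.18 (limma, adjusted p = 0.590), against the -1.36 of kek5, which was picked for its difference. Among 7 guidance genes fra, the Netrin receptor gene, had the lowest difference at -0.58 ± 0.30 (limma, adjusted p = 0.470), and dlp, a glypican gene, stood at -0.54 ± 0.30 (limma, adjusted p = 0.484). Both rested on sevS11 extraction 1, since fra read -0.75 and 0.19 and dlp -0.74 and 0.15 in the sevS11 extractions. The ratio of drl, another receptor-like pseudokinase gene, differed by 0.10 (limma, adjusted p = 0.804), against the 1.48 of otk. Since kek5 and otk were picked for their difference, nothing is read from how far kek1 and drl stand from them. All 5 integrin and linker genes lay below 0, the lowest being Ilk, the integrin-linked kinase gene (-0.36 ± 0.14, limma adjusted p = 0.379). For if and rhea the ratios of sevS11 extraction 2, 0.10 and 0.16, were above the sevd2 ratios of 0.03 and 0.10. For stck that of sevS11 extraction 1 was (-0.09 against -0.12). Of 9 septate junction and polarity genes 7 lay below 0 and none passed. Since the share of all tested genes below 0 was not counted, nothing is read from these counts by list.

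**Figure D4:**
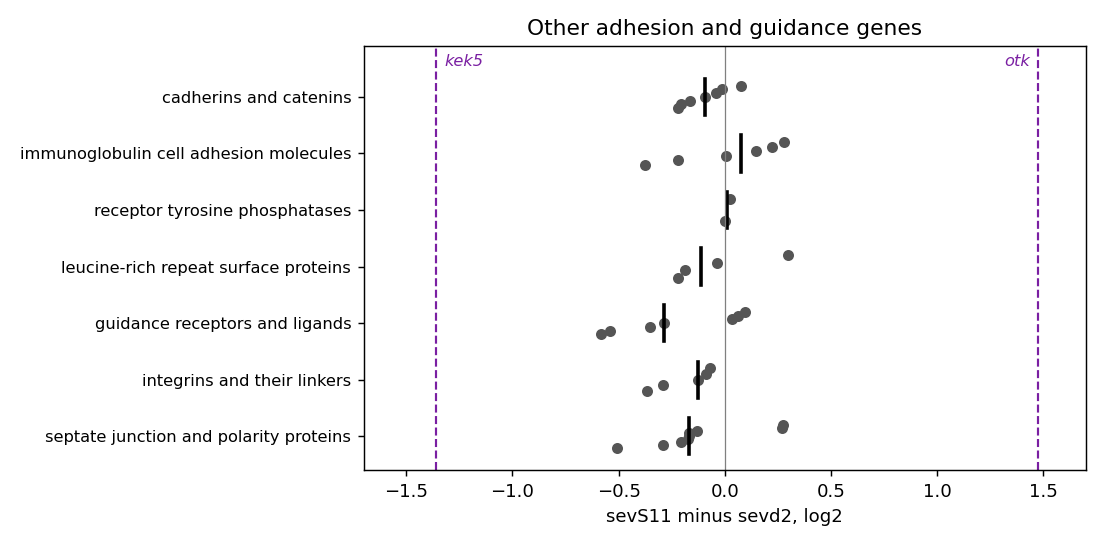
Difference in log2 ratio, sevS11 minus sevd2 (x axis), for the 40 other tested adhesion and guidance genes by list (rows). Points are genes, black bars are list medians and dashed lines mark kek5 (-1.36) and otk (1.48). The 40 genes lie between -0.58 and 0.30. The kek5 and otk lines lie outside that range, but both genes were picked for this difference, so nothing is read from it.

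Blood cells attach to discs, and the mean of their tested markers differed in level between the genotypes. All 12 listed blood cell markers had a value and 6 were tested. The mean log2 ratio of the 6 was -0.85 and -0.66 in the sevd2 extractions and 0.85 and 0.49 in the sevS11 extractions. In the fit 6 of 6 were higher in sevS11. The share of all tested genes that were higher was not counted, so nothing is read from that count. The sevS11 means rested mostly on He, PPO1 and PPO2, which read between 0.75 and 1.86 there. Earlier results of these same data had shown these 3 genes to be opposite between the alleles, so the difference in means was partly known beforehand. Col4a1 was above 0 on all 3 sevS11 arrays too (0.50, 0.41 and 0.21) and below 0 on every sevd2 array. SPARC was below 0 on all 3 sevS11 arrays (-0.17, -0.013 and -0.56), and the last value lay below that of sevd2 replicate 4 (-0.549). On the array of sevS11 extraction 2 NimC1 (-0.56), Hml (-0.20), eater (-0.30), Pxn (-0.092) and srp (-0.091) were below 0 too. In sevS11 extraction 1 these genes were above 0 on each array with a value, from 0.05 (eater) to 0.72 (Hml). The NimC1 value of sevS11 extraction 2 lay below both sevd2 values of that gene (-0.31 and -0.41). The otk ratio ran in the direction of the 6-gene mean and the kek5 ratio in the opposite one, and the part of blood cells in either was not tested. Markers of photoreceptor neurons, of which 5 of 11 were tested, averaged -0.14 and -0.29 in sevd2 and -0.03 and 0.25 in sevS11, with 3 of 5 higher in sevS11. Of 10 glial markers 3 were tested, and they averaged -0.01 and -0.27 in sevd2 and -0.33 and -0.13 in sevS11. The neuronal genes nSyb, Syt1, brp and futsch and the glial genes moody and gcm had no value on any array. In whole discs, fewer cells of a type and less RNA per cell cannot be told apart.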

How the data were processed

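Eye disc RNA was amplified, coupled to Cy3 or Cy5 and hybridised against a pooled reference, per the labels' protocols. The values that the authors deposited for each probe were treated as log2 ratios. The submitters' processing notes name limma. The sources used here do not give the log base, direction, background correction, normalisation or filter. Swapped arrays were already turned 1 way. The table held 16416 probes, 8650 of them with no value. Gene names came from GEO's platform annotation, some of it old, and a RefSeq gene table updated 12533 of them by gene identifier and 120 by accession. An older symbol was kept for 511 probes. No name was given to 101 probes with several genes or to 3151 that the annotation given here does not list. Probes of a gene were averaged (247 genes).

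Arrays of an extraction were averaged. The single sevS11 array of extraction 2 had the mean dye effect of the swapped pairs with a value (at most 3) subtracted per gene. The 4 extractions were fitted with limma 3.58.1 in R 4.3.3 (lmFit, eBayes, prior degrees of freedom 3.8, residual 2) and adjusted by Benjamini-Hochberg over 3586 genes with a value in every extraction. The number of arrays limits the precision. The fit of the difference between the genotypes and the dye correction were tried on simulated data, and the other steps were not.

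The members and lists were chosen with earlier results of these data known. Named genes are all members, list genes that passed or had the lowest p, and the 3 genes nearest to kek5 and to otk. Those at the ends of a list's range, and kek1, drl and dlp, were named after their values were seen. Extraction numbers are shared by the genotypes, but the labels do not say that they mark a common batch.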

Additional observations from a re-analysis of the deposited data

Results flagged for a closer look

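Lar was set aside because its extractions lay on opposite sides of 0 in the genotypes. Both sevd2 extractions were above 0 (0.37 and 0.10) and the only sevS11 extraction with a value was below it (-0.12), a difference of -0.35. This difference was not tested, since sevS11 extraction 2 gave no value. The 4 sevd2 arrays of kek5, Ptp69D, Nrg and shg held no array that stood apart from the others by Dixon's ratio of gap to range, the highest of which was 0.581, for shg.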

How the results depend on the processing

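Since kek5 and otk were picked for their difference, their calls under the alternatives are a description and carry no test. Of the tested receptors, 1 (kek5) was called in sevS11 under every alternative that gave a count, with log2 ratios of -1.36 (no dye correction) to -1.06 (scaled). In fits with a single sevS11 extraction its ratio was -1.71 or -0.87. In sevd2 the count rose from 0 to 1 (otk) in the array-level fit with extraction as a random block, with arrays centred, scaled or quantile-normalised, with only that genotype's extractions, and at an adjusted p under 0.1. Leaving out arrays gave 0 to 1. In sevS11 minus sevd2 it rose from 0 to 1 (otk) in the array-level, scaled and quantile fits and at an adjusted p under 0.1, and leaving out arrays gave 0 to 1. With the extraction number as a replicate block it was 1 in sevd2 and 2 (kek5 and otk) in the difference, although same-numbered extractions did not deviate together (r = -0.07 across 3586 genes). Over all genes the block gave 383, 92 and 85 calls in sevS11, sevd2 and the difference, beside 207, 3 and 2. The array-level fit gave 395, 39 and 39, scaling 116, 174 and 27, quantile normalisation 145, 166 and 23, and an adjusted p under 0.1 gave 408, 33 and 24. No dye correction gave 0 calls in sevd2 (333 at an unadjusted p under 0.05) and 1 in the difference. Genes on all 7 arrays gave 132, 13 and 0 (287 unadjusted in the last). Centring gave 11 in sevd2 and 1 in the difference, where single probes and the robust fit also gave 1. That genotype's own extractions gave 496 in sevd2. Leaving out arrays gave 58 (without sevS11 replicate 1) to 251, 0 to 34 and 1 to 17. Fits that left 1 genotype a single extraction gave no counts. The otk probe was untested among genes on all 7 arrays and without sevd2 replicate 2 or 4.

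In sevS11 shg turned to -0.019 with no dye correction and -0.012 in the array-level fit. Leaving out arrays or extractions gave ranges across 0 in sevS11 for shg (-0.26 to 0.29), otk (-0.016 to 0.45) and Ptp69D (-0.56 to 0.15). In sevd2 it did so for kek5 (-0.050 to 0.13) and Nrg (-0.034 to 0.14), and in the difference for Ptp69D (-0.67 to 0.039) and shg (-0.43 to 0.13). Of 381 alternative values of the receptors and Sema5c, 324 kept direction and side of the threshold, 41 newly passed, 2 no longer passed (Sema5c) and 14 changed sign. These values include kek5 and otk and fits with a single extraction. Settings such as the robust fit, the replicate block and the looser threshold left every ratio as it was. Leaving out sevS11 replicate 3 or sevS11 extraction 2 is the same fit, entered under both names. The counts are therefore no measure of stability. The causes were not tested.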
